A study of Mus musculus with 6 samples.

Results

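The genes described here are the receptors for insulin and insulin-like growth factors (IGFs), their docking substrates and the IGF-binding proteins, measured by RNA-seq in C2C12 myotubes. C2C12 is a line of mouse myoblasts, here differentiated with 2% horse serum. They were taken by name from the deposited table: Igf1r and Insr (receptors), Irs1 and Irs2 (substrates) and Igfbp2, Igfbp3, Igfbp4, Igfbp5, Igfbp6 and Igfbp7 (binding proteins), 10 of the 55401 genes listed. All 10 were among the 14668 genes tested, for which 3 or more libraries had to reach a normalized read count of 10. The cultures received 100 pmol of siRNA for 3 days, either against SENP7, which encodes a SUMO protease, or the GL2 siRNA, aimed at luciferase, as control. Each group had 3 libraries, which the submitters call biological replicates, and polyadenylated RNA was sequenced from all 6. C2C12 is a single line, so the replicates are cultures of the same cells and not different animals.

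IGF1, IGF2 and insulin bind receptor tyrosine kinases on the cell surface, which phosphorylate IRS proteins and through them engage the PI3K-AKT and RAS-ERK branches. IGF-binding proteins hold IGFs outside the cell and can keep them from the receptor or deliver them to it. In muscle this system is known for driving differentiation and growth, and C2C12 cells are known to make their own IGF2 and to raise IGFBP5 when they differentiate.

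The promoters of the binding protein genes that differed most between the groups, Igfbp3 and Igfbp2, are shown so that the genes can be compared at sequence level. Each run is the 250 bases before the RefSeq start (GRCm38.p6), 5′ to 3′ on the gene's strand. Capitals mark CACGTG, the palindromic E-box, or TATANA on either strand. The Igfbp3 window is chr11:7213924-7214173 (minus strand) and the Igfbp2 window is chr1:72824230-72824479 (plus strand, the start nearer to the deposited gene start).
Igfbp3: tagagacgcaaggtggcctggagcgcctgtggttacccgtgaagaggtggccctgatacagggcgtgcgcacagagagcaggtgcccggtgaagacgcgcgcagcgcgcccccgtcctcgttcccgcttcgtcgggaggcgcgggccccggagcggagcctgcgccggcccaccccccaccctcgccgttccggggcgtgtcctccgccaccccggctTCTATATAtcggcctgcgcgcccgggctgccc
Igfbp2: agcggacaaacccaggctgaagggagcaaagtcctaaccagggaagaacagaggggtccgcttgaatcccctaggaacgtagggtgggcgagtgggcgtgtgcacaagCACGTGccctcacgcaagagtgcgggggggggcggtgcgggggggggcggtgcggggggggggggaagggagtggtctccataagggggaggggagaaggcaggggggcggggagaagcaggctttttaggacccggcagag

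The substrate genes Irs1 and Irs2 are shown as 60-base stretches of the same kind of window, because their windows share a pair of motifs. Capitals mark CACGTG and TGTTTTG, which overlap in Irs1. The Irs1 stretch is chr1:82291522-82291581 and the Irs2 stretch chr8:11008941-11009000, both on the minus strand, with CACGTG starting 115 bases before the Irs1 start and 44 before the Irs2 start.
Irs1: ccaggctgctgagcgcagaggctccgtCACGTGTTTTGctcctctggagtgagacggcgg
Irs2: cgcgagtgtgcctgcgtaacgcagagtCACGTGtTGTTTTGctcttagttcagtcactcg

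Windows were found for 9 of the 10 genes, all but Insr. The RefSeq start lay 570 bases from the deposited gene start for Igf1r, 471 for Irs2 and 176 for Igfbp6. For the other genes with a window the distance was at most 23 bases. Irs1, Irs2 and Igfbp2 held CACGTG, which occurs in 6.02% of 32851 promoter windows of this length. Irs1 and Irs2 also held TGTTTTG (5.56% of windows, both strands searched), and 0.295% of windows held both motifs. TATANA (22.6% of windows) was in Igfbp3, where TATATA starts 30 bases before the RefSeq start, in Igfbp4 and in Igfbp6. The Igfbp4 match starts 28 bases before the RefSeq start, and the Igfbp6 matches lie farther off, starting 148 and 146 bases before it. The GC-box core GGGCGG (32.7%) was in Igf1r, Irs1, Irs2, Igfbp2 and Igfbp7, ACGTG (16.6%) in Irs1, Irs2, Igfbp2 and Igfbp7, and the general E-box CANNTG (66.2%) in 7 of the 9 windows. CACGTG is itself a case of CANNTG and contains ACGTG on both strands. The motifs were chosen after the windows had been read, and a match describes letters only.

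The siRNA target Senp7 had normalized counts of 275, 279.2 and 346.7 in the SENP7 siRNA libraries and 556.4, 616.4 and 648.8 in the control libraries, and was 2.02-fold lower with SENP7 siRNA (log2 difference -1.02 ± 0.11, adjusted p = 0.000428 by limma), so part of the transcript remained. Libraries held between 25223218 and 30865945 reads assigned to genes. Over all genes tested, 10.2% rose and 10.7% fell, 20.9% in all. Of the myotube markers, 3 of 10 rose and 0 fell (30% called), with summed counts of 673527 to 753848 in SENP7 siRNA and 576737 to 614739 in control libraries. Of 9 markers of cycling myoblasts 0 passed the test (summed counts 6723 to 9202 in SENP7 siRNA and 8014 to 10766 in control), and of the 6 markers of undifferentiated reserve cells tested, of 7 listed, 1 rose and 2 fell (50% called, sums of 9114 to 9710 in SENP7 siRNA and 9252 to 9792 in control), with Calcr at 0 in every library. Of 9 fibroblast, fat and bone markers 4 were tested, of which 1 rose and 1 fell (50% called), with sums of 1375 to 1469 in SENP7 siRNA and 1584 to 1729 in control. Adipoq, Fabp4, Plin1, Bglap and Ibsp did not meet the filter (Ibsp at 0), while the bone marker Sp7 met it at low counts of 4.279 to 10.42 in SENP7 siRNA and 10.01 to 25.2 in control and did not pass the test (adjusted p = 0.149 by limma). Because these are bulk cultures, fewer cells of a type and less RNA per cell cannot be told apart, and the part of these markers in the results below was not tested.

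In SENP7 siRNA myotubes Igfbp3 rose 2.32-fold and Igfbp2 fell 2.85-fold, while Igfbp7 fell 1.34-fold. The other 7 genes, both receptors among them, did not pass the test. The count was thus 1 of 10 higher, against 10.2% of all genes tested, and 2 of 10 lower, against 10.7%. In either direction it was 3 of 10, where 20.9% of all genes tested passed. Without control replicate 3 the counts were 3 higher and 3 lower, and without SENP7 replicate 1 or SENP7 replicate 2 they were 1 higher and 1 lower. The median log2 fold change was -0.04 over the 10 genes and -0.00 over all genes tested. The libraries of the groups did not overlap for 5 of the 10 genes, where 39.6% of all genes tested were separated in this way. They were higher in every SENP7 siRNA library for 2 of 10 (19.3% of all genes tested) and lower in every one for 3 of 10 (20.4%). Log2 fold changes set SENP7 siRNA over control on the log2(normalized count + 1) scale and are given with their standard error (SE). Adjusted p values of the main test come from limma, with the Benjamini-Hochberg procedure run over all genes tested. Ranges over the alternatives also hold values from DESeq2 and edgeR, and from filters that leave other sets of genes.

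**Figure D1:**
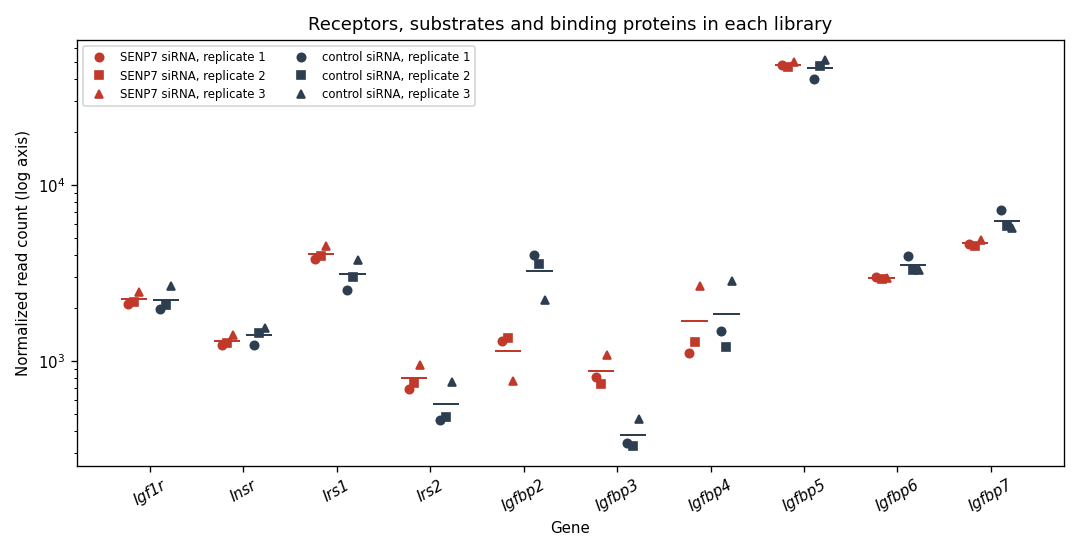
Normalized read count (log axis) of each gene in each library, with SENP7 siRNA (red) left of control siRNA (dark), 1 symbol per replicate number and a line at the group mean. Igfbp3 lay between 740.3 and 1088 in SENP7 siRNA libraries and below them, at 327.1 to 468.8, in control libraries, while Igfbp2 was separated in the other direction.

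Neither receptor transcript passed the test. Igf1r, the IGF1 receptor (chromosome 7, 67952827 to 68233668, plus strand), had counts of 2102, 2167 and 2466 in SENP7 siRNA replicates 1, 2 and 3 and of 1968, 2080 and 2656 in control replicates 1, 2 and 3. The groups overlapped over their whole range and replicate 3 was the highest in each. The log2 fold change was 0.02 ± 0.11 (adjusted p = 0.941), with a 95% interval of -0.24 to 0.27, or 0.847-fold to 1.21-fold. Its sign turned without SENP7 replicate 3 (-0.05) or control replicates 1 (-0.07) or 2 (-0.03).

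Insr, the insulin receptor (chromosome 8, 3122061 to 3279617, minus strand), had 1238, 1269 and 1413 in SENP7 siRNA and 1230, 1440 and 1542 in control libraries. These ranges overlapped too, and replicate 3 was again the highest of its group. Its log2 difference was -0.10 ± 0.09 (adjusted p = 0.487, 95% interval -0.31 to 0.11). Per kilobase of exon, Igf1r made up 58.2%, 58.3% and 58.8% of the summed Igf1r and Insr level in SENP7 siRNA libraries and 56.7%, 54.2% and 58.5% in control libraries.

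Both docking substrates had higher means in SENP7 siRNA without passing the test. Irs1 (chromosome 1, 82233101 to 82291416, minus strand) had counts of 3805, 3948 and 4495 in SENP7 siRNA libraries and 2550, 3012 and 3777 in control libraries. The groups did not overlap, but control replicate 3 lay just under the lowest SENP7 siRNA library. The log2 fold change was 0.41 ± 0.13 (adjusted p = 0.0563, 95% interval 0.11 to 0.70). Irs1 passed in 5 of 18 alternatives, among them without control replicate 3 (adjusted p = 0.000857), without replicate 3 in both groups (0.000314), with DESeq2 on the recovered reads (0.0237) and under quantile normalization (0.0454), with a range of 0.000314 to 0.174 over all alternatives. The authors' deposited table gives Irs1 an adjusted p of 0.0409.

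Irs2 (chromosome 8, 10984681 to 11008458, minus strand), the substrate known in mouse for its role in liver and beta cells, had counts of 693.8, 749.9 and 943.5 in SENP7 siRNA and 462.6, 479.5 and 761.6 in control libraries. Here control replicate 3 exceeded SENP7 siRNA replicates 1 and 2, so the groups overlapped. The log2 fold change was 0.51 ± 0.19 (adjusted p = 0.0876, 95% interval 0.09 to 0.94). Without control replicate 3 it was 0.74 (adjusted p = 0.000871), and without replicate 3 in both groups it passed as well (8.41e-05), with 8.41e-05 to 0.328 over all alternatives. The Irs1 share of the summed Irs1 and Irs2 level per kilobase was 79.1%, 78.4% and 76.7% in SENP7 siRNA and 79.2%, 81.3% and 77.4% in control libraries, so that Irs1 was the more abundant substrate transcript in every library. Exons of Gm9747 on the opposite strand cover 30.9% of the Irs1 exon length, and that gene averaged 0.9481 in SENP7 siRNA and 1.714 in control libraries. How strand was handled in counting is not given, so these low counts do not tell whether reads of the shared stretch were lost from Irs1.

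**Figure D2:**
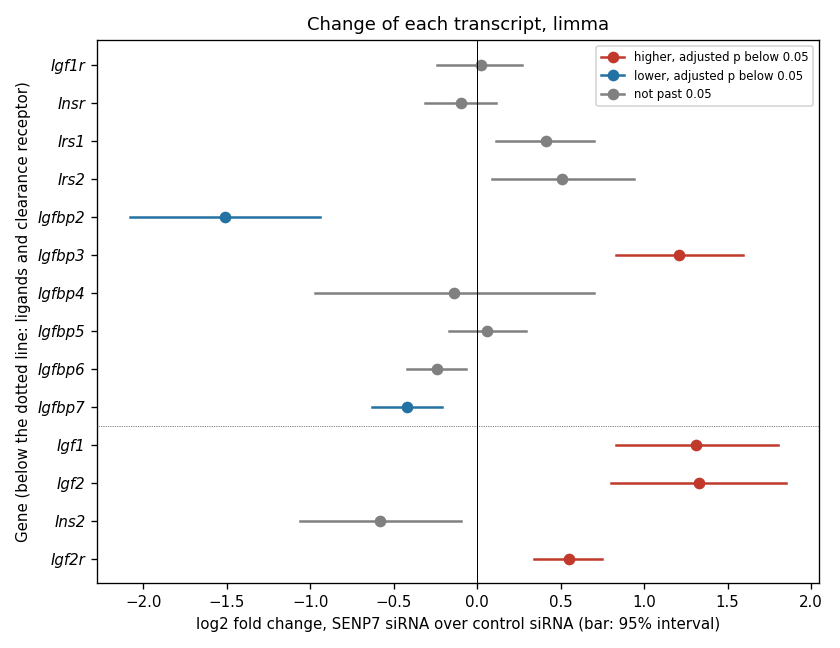
Log2 fold change (x axis, SENP7 siRNA over control) for the receptors, substrates and binding proteins, and below the dotted line for the ligands and the IGF2 clearance receptor. Bars show the 95% interval from limma, which is per gene and not adjusted. The intervals of Igf1r, Insr, Igfbp4 and Igfbp5 span 0, and those of Igfbp2 (-2.08 to -0.94) and Igfbp3 (0.83 to 1.59) lie on opposite sides of it.

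Igfbp3, which encodes the main IGF carrier of the circulation (chromosome 11, 7206086 to 7213923, minus strand), had counts of 811, 740.3 and 1088 in SENP7 siRNA and 340.7, 327.1 and 468.8 in control libraries. Every SENP7 siRNA library lay above every control library, and replicate 3 was the highest of each group. Means were 879.9 ± 184 in SENP7 siRNA and 378.9 ± 78.2 in control libraries (SD, 3 libraries each), and Igfbp3 rose by 1.21 ± 0.17 on the log2 scale (adjusted p = 0.00159). The call held in all 18 alternative settings, with adjusted p from 1.93e-10 with DESeq2 to 0.0144 with limma without control replicate 2. Between libraries of the same number the log2 difference was 1.25, 1.18 and 1.21, though the labels do not pair libraries by number.

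Igfbp2 (chromosome 1, 72824503 to 72852474, plus strand), a binding protein with an integrin-binding motif that is abundant in the fetus, had counts of 1308, 1349 and 773 in SENP7 siRNA libraries and 3984, 3579 and 2223 in control libraries. The groups did not overlap, and replicate 3 was the lowest of each. Means were 1143 ± 321 in SENP7 siRNA and 3262 ± 923 in control libraries, and the log2 difference was -1.51 ± 0.25 (adjusted p = 0.00363). The call was lost without a filter on low counts (adjusted p = 0.0854) and held in the other 17 settings, from 1.6e-08 to 0.0854 over all. Between libraries of the same number the log2 difference was -1.61, -1.41 and -1.52. The authors' deposited log2 fold change for Igfbp2 was smaller in size, at -0.95.

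Igfbp7 (chromosome 5, 77349240 to 77408041, minus strand), a family relative that binds IGFs weakly and is deposited in the matrix, had 4626, 4531 and 4871 in SENP7 siRNA and 7276, 5872 and 5711 in control libraries. The groups were separated, with the control libraries spread more widely. Igfbp7 fell by 0.42 on the log2 scale (SE 0.09, adjusted p = 0.0136). This call was lost without SENP7 replicate 1 (adjusted p = 0.0555) or SENP7 replicate 2 (0.0615), with 0.000457 to 0.0615 over all alternatives. Libraries of the same number differed by -0.65, -0.37 and -0.23 on the log2 scale, less evenly than for Igfbp3 and Igfbp2. Exons of Polr2b on the opposite strand cover 7.03% of the Igfbp7 exon length.

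Igfbp6 (chromosome 15, 102144362 to 102149511, plus strand), which prefers IGF2 over IGF1, had counts of 3012, 2938 and 2961 in SENP7 siRNA and 3973, 3313 and 3301 in control libraries. The SENP7 siRNA values lay close together and below all control values. A log2 fold change of -0.24 ± 0.08 missed the threshold (adjusted p = 0.0555), and it passed in 5 of 18 alternatives, among them without control replicate 3 (0.0129), with a range of 0.0117 to 0.162.

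Igfbp5 (chromosome 1, 72857932 to 72874884, minus strand), the binding protein of differentiating myoblasts, had 48258, 46884 and 50211 in SENP7 siRNA and 40440, 47814 and 51888 in control libraries. The control range enclosed the SENP7 siRNA range. On the log2 scale the change was 0.06 ± 0.10 (adjusted p = 0.718, 95% interval -0.17 to 0.29), with a sign that turned to -0.04 without control replicate 1. Igfbp5 and Igfbp2 are neighbours in convergent orientation, with 5457 bases and no other gene of the table between them. Whether these 2 genes differ in their change was not tested.

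Igfbp4 (chromosome 11, 99041244 to 99054392, plus strand), known as an inhibitor of IGF action that is cut by the protease PAPP-A, had counts of 1107, 1279 and 2670 in SENP7 siRNA and 1472, 1197 and 2853 in control libraries. In each group replicate 3 stood far above the other libraries, by 2.24-fold over their mean in SENP7 siRNA and by 2.14-fold in control. The log2 fold change was -0.14 ± 0.37 (adjusted p = 0.827, 95% interval -0.97 to 0.70), which runs from 0.511-fold to 1.62-fold. Its sign turned without SENP7 replicates 1 (0.11) or 2 (0.01) or control replicate 3 (0.23).

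Replicate 3 stood at an end of its group for most of the 10 genes. It was the highest of both groups for Igf1r, Insr, Irs1, Irs2, Igfbp3, Igfbp4 and Igfbp5 and the lowest of both for Igfbp2, which makes 8 of 10 genes at the same end in each group, where 44.2% of all genes tested were. For Igfbp3 replicate 3 was 1.4-fold the mean of replicates 1 and 2 in SENP7 siRNA and 1.4-fold in control, and for Igfbp2 it was 0.582-fold in SENP7 siRNA and 0.588-fold in control. Igfbp4 was 1 of 39 genes (0.266% of those tested) whose replicate 3 differed more than 2-fold in the same direction in both groups. The labels do not say what a replicate number stands for. The mean log2 level of the cycling myoblast markers in replicate 3 differed from that of replicates 1 and 2 by -0.46 in SENP7 siRNA and by 0.33 in control, opposite in sign, and its part in the spread was not tested.

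**Figure D3:**
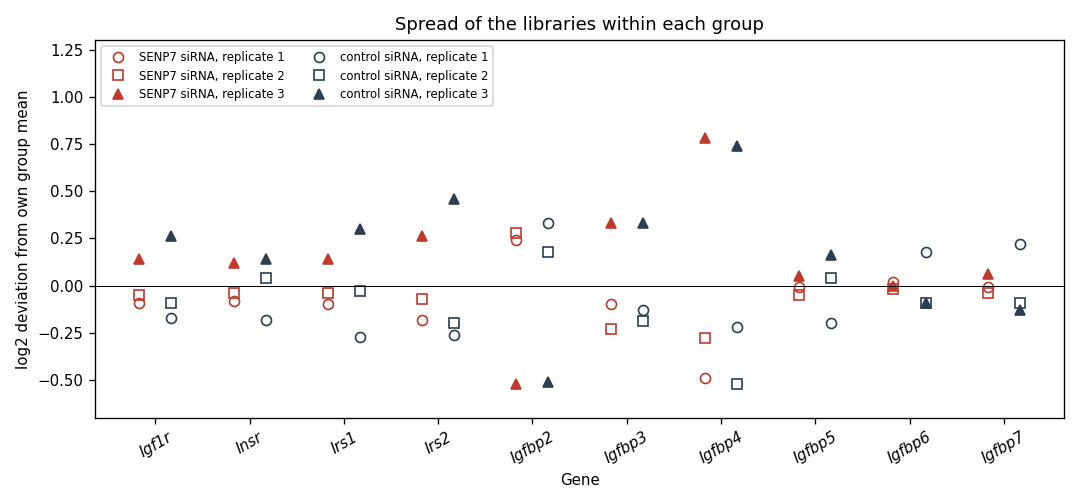
Log2 deviation of each library from the mean of its own group, with SENP7 siRNA (red) left of control siRNA (dark), 1 symbol per replicate number and replicate 3 filled. Replicate 3 lies on the same side in both groups for 8 of the 10 genes as their highest or lowest library, and Igfbp6 and Igfbp7 are the other two.

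Levels were compared between genes per kilobase of exon. Igfbp5 had the highest level, at 8067 ± 278 normalized counts per kilobase in SENP7 siRNA and 7778 ± 966 in control (SD, n = 3), followed by Igfbp7 (3868 ± 145 in SENP7 siRNA and 5200 ± 712 in control) and Igfbp6 (2671 ± 34.3 in SENP7 siRNA and 3174 ± 346 in control). The ranges of these 3 genes were apart from each other in both groups. Igfbp2 came next in each group, with 619 ± 174 in SENP7 siRNA and 1766 ± 500 in control. Its range overlapped that of the next gene, Irs1, in SENP7 siRNA and was apart from that of the next gene, Igfbp4, in control libraries. Irs1 (446 ± 39.9 in SENP7 siRNA and 340 ± 67.8 in control) and Igfbp4 (382 ± 194 in SENP7 siRNA and 417 ± 201 in control) could not be ordered against each other in either group. Igfbp3 stood at 281 ± 58.8 in SENP7 siRNA, apart from and above Igf1r (134 ± 11.6), and at 121 ± 25 in control, where its range overlapped those of Igf1r (133 ± 22) and Insr (102 ± 11.6). Irs2 stood at 126 ± 20.7 in SENP7 siRNA and 89.8 ± 26.6 in control. Its range overlapped that of Igf1r in SENP7 siRNA and that of Insr in control. Insr, at 95.1 ± 6.82, was apart from and below Irs2 in SENP7 siRNA.

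Igfbp5, Igfbp7 and Igfbp6 together held most of the binding protein transcript level in every library. Igfbp2 made up 4.48%, 4.73% and 2.55% of the summed per-kilobase level of the 6 binding protein genes in SENP7 siRNA libraries and 11.4%, 10.7% and 6.56% in control libraries. Igfbp3 made up 1.64%, 1.53% and 2.12% in SENP7 siRNA and 0.575%, 0.577% and 0.817% in control. Igfbp5 was the largest share in every library, at 50.9%, 50.5% and 50.9% in SENP7 siRNA and 35.6%, 44% and 47.1% in control. The sum itself was 15788, 15452 and 16423 in SENP7 siRNA and 18924, 18111 and 18331 in control, so the groups did not overlap. The ratio of Igfbp3 to Igfbp2 per kilobase was 0.366, 0.324 and 0.831 in SENP7 siRNA and 0.0505, 0.0539 and 0.124 in control libraries. These shares and sums combine genes already described and were not tested.

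**Figure D4:**
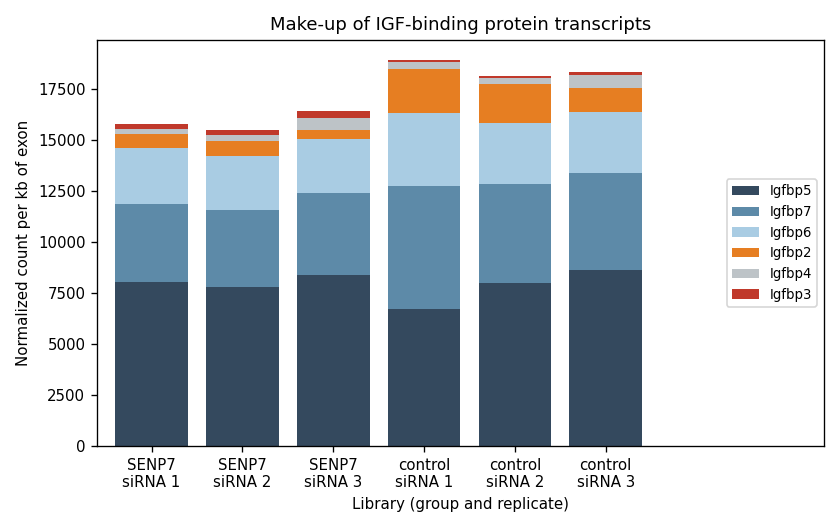
Stacked normalized counts per kilobase of exon of the 6 IGF-binding protein genes in each library, SENP7 siRNA on the left. The stacks reach 15452 to 16423 in SENP7 siRNA and 18111 to 18924 in control, with the Igfbp2 layer thinner and the Igfbp3 layer thicker in SENP7 siRNA libraries.

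Igf1, Igf2 and the clearance receptor gene Igf2r rose, and Ins2 did not pass the test. Of the 6 listed genes 4 were tested, of which 3 rose and 0 fell (75% called, where 20.9% of all genes tested passed). Igf1 had counts of 826.9, 944.6 and 1219 in SENP7 siRNA and 324.6, 337.1 and 566.1 in control libraries, without overlap and with replicate 3 highest in each. Its log2 fold change was 1.31 ± 0.21 (adjusted p = 0.00334), a call lost without a filter on low counts (adjusted p = 0.0683, with 1.56e-08 to 0.0683 over all alternatives). Igf2, the autocrine ligand of C2C12 cells, had 184.5, 163.7 and 149.7 in SENP7 siRNA and 47.37, 94.57 and 62.25 in control libraries, again without overlap, and rose by 1.33 ± 0.23 on the log2 scale (adjusted p = 0.00456). Exons of Gm49394 on the same strand cover 62.8% of the Igf2 exon length, and that gene averaged 119.6 in SENP7 siRNA and 8.166 in control libraries, so reads of the shared stretch could not be assigned with certainty. Igf2r, which takes up and degrades IGF2 without a kinase of its own, had 7217, 7107 and 7218 in SENP7 siRNA and 4330, 4928 and 5583 in control libraries, and rose by 0.55 ± 0.09 on the log2 scale (adjusted p = 0.00331).

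Insulin itself was scarce or absent. Ins1 was at 0 reads in every library, Ins2 had 31.94, 38.51 and 23.68 in SENP7 siRNA and 46.36, 44.5 and 48.64 in control libraries, and its log2 difference of -0.58 ± 0.21 missed the threshold (adjusted p = 0.0888, with 0.0715 to 0.236 over all alternatives). The insulin receptor-related gene Insrr did not meet the filter. Per kilobase, Igf1 stood at 101 ± 20.3 in SENP7 siRNA and 41.3 ± 13.7 in control, and Igf2 at 29 ± 3.07 in SENP7 siRNA and 11.9 ± 4.22 in control. The Igf2 value divides by its whole exon length, of which 62.8% is shared with Gm49394. Reads of that stretch may be missing from it, so Igf1 and Igf2 could not be ordered by level.

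Among the other carriers and the proteases that cut binding proteins, 5 of 8 genes were tested, of which 1 rose and 0 fell (20% called, where 20.9% of all genes tested passed). The riser was Pappa2, a protease of IGFBP3 and IGFBP5 named here after its values were seen, with 62.11, 43.86 and 77.68 in SENP7 siRNA and 30.24, 33.38 and 33.07 in control libraries (log2 fold change 0.87 ± 0.22, adjusted p = 0.0255). That call was lost without SENP7 replicates 1 or 3 (adjusted p = 0.0905 and 0.0849) or control replicates 1 or 2 (0.0695 and 0.0775), with 0.0112 to 0.0905 over all alternatives. Without SENP7 replicates 1 or 3 or control replicates 1 or 2 the list held 0 called genes, and without control replicate 3 it held 2. Igfbp1, which lies 3539 bases from Igfbp3 in convergent orientation, was at 0 in every library, and Igfals, the partner of IGFBP3 in the circulating complex, did not meet the filter.

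Of 17 listed genes for proteins that bind the receptors or their substrates 15 were tested, of which 2 rose, 4 fell and 9 did not pass (40% called, against 20.9% of all genes tested), with a median log2 fold change of 0.02 over those tested. Socs3, an inducible inhibitor of cytokine and insulin signalling, had 5015, 4696 and 6844 in SENP7 siRNA and 2081, 1579 and 2772 in control libraries and rose by 1.38 ± 0.20 on the log2 scale (adjusted p = 0.00188), a call lost without a filter on low counts (0.0566, with 1.79e-07 to 0.0566 over all alternatives). Its relative Socs2, a target and inhibitor of growth hormone signalling, had 936.9, 967.1 and 980.5 in SENP7 siRNA and 1805, 1808 and 1451 in control libraries, and its log2 difference was -0.80 ± 0.09 (adjusted p = 0.000515). The adaptor Dok1 fell by 0.46 on the log2 scale (adjusted p = 0.00193). The phosphatase gene Ptpn11 fell by 0.30 (adjusted p = 0.0125), a call lost without SENP7 replicate 2 (0.0668) or control replicate 2 (0.0628), with 0.00046 to 0.0668 over all alternatives. Grb10, the other riser, had low counts of 53.24, 51.35 and 63.47 in SENP7 siRNA and 19.15, 16.69 and 28.21 in control libraries. Its log2 fold change was 1.38 ± 0.23 (adjusted p = 0.00397 by limma). Shc1, the remaining gene that fell, passed narrowly (adjusted p = 0.0494 by limma).

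In the PI3K, AKT and mTOR branch 4 of 32 genes rose and 3 fell, or 21.9% called, close to the 20.9% of all genes tested. Akt2, the AKT form known in mouse for insulin-driven glucose uptake, had 9264, 9161 and 9256 in SENP7 siRNA and 5607, 5990 and 5980 in control libraries, and rose by 0.66 ± 0.06 on the log2 scale (adjusted p = 0.000174). The regulatory subunit gene Pik3r3 had 964.4, 961.7 and 972.9 in SENP7 siRNA and 733.8, 741 and 728.6 in control libraries (0.40 ± 0.06, adjusted p = 0.00192). Deptor, which encodes an inhibitor within mTOR complexes, fell by 0.53 on the log2 scale (adjusted p = 0.00709). The catalytic subunit gene Pik3cd fell by 1.06 at low counts, with means of 40.91 ± 10.7 in SENP7 siRNA and 85.22 ± 14.6 in control libraries (adjusted p = 0.0124), a call lost without control replicate 2 (0.0658, with 0.001 to 0.0658 over all alternatives). Called genes of this branch were 14 without control replicate 3 (10 higher, 4 lower) and 4 without SENP7 replicate 1, SENP7 replicate 2 or control replicate 2.

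In the RAS and ERK branch 2 of 15 genes rose and 0 fell (13.3% called, below the 20.9% of all genes tested). Both encode RSK kinases downstream of ERK. Rps6ka1 rose by 1.06 ± 0.17 on the log2 scale (adjusted p = 0.00302), with means of 135.8 ± 6.81 in SENP7 siRNA and 65.39 ± 14.7 in control, and Rps6ka3 rose by 0.32 ± 0.06 (adjusted p = 0.00801). Without control replicate 3 there were 7 called genes, 2 higher and 5 lower. Of the FoxO factors and transcripts known to rise with active FoxO, 11 of 12 were tested, of which 0 rose and 2 fell (18.2% called, close to the 20.9% of all genes tested). Ccng2 fell by 0.50 on the log2 scale (adjusted p = 0.016) and Pdk4, which restrains pyruvate oxidation, by 0.41 (adjusted p = 0.0208). Both calls were lost without SENP7 replicate 2 (0.0615 for Ccng2 and 0.0853 for Pdk4) or control replicate 2 (0.0823 for Ccng2 and 0.0603 for Pdk4). Ccng2 was also lost without SENP7 replicate 3 (0.0566) or control replicate 1 (0.0523), and Pdk4 without SENP7 replicate 1 (0.0822), with 5.89e-06 to 0.0823 for Ccng2 and 0.000223 to 0.0853 for Pdk4 over all alternatives. Called genes of this list were 6 without control replicate 3 (2 higher, 4 lower), 0 without SENP7 replicate 2 or control replicate 2 and 1 without any one of the other three libraries.

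**Figure D5:**
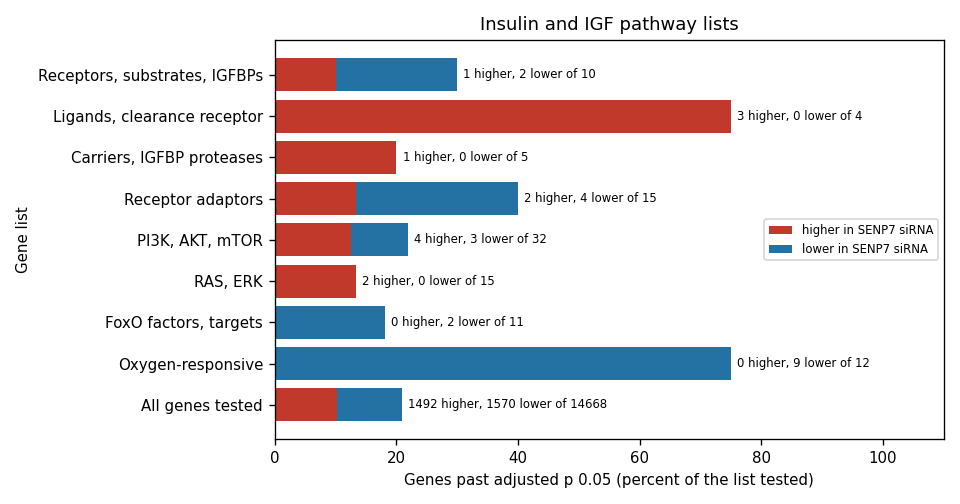
Percent of each list's tested genes called higher (red) or lower (blue) in SENP7 siRNA by limma, with the counts beside each bar and all 14668 genes tested at the bottom. The ligand list holds 3 called of 4 and the oxygen-responsive list 9 of 12, all lower, while the PI3K branch (21.9%) lies close to all genes (20.9%).

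Transcripts known to rise in low oxygen are given beside these results because Igfbp3 is also known to respond to oxygen in other cells. Of 12 such genes 0 rose and 9 fell (75% called, where 10.7% of all genes tested fell), with summed counts of 26795 to 27909 in SENP7 siRNA and 37187 to 63689 in control libraries. Egln3 had 1742, 1651 and 1369 in SENP7 siRNA and 7738, 8776 and 4689 in control libraries (log2 fold change -2.11 ± 0.20, adjusted p = 0.000264). Ndrg1 (-0.88), Car9 (-3.15) and Vegfa (-0.61) fell as well on the log2 scale, Car9 with a call lost in 2 of 18 alternatives, without a filter (adjusted p = 0.0759) and under the replicate block (0.11), and with 3.11e-10 to 0.11 over all of them. Its log2 difference was -3.85 without control replicate 3. In the mean log2 level of this list SENP7 siRNA replicate 3 differed from replicates 1 and 2 by 0.01, and control replicate 3 differed from control replicates 1 and 2 by -0.86. Called genes of this list were 5 without SENP7 replicate 1, SENP7 replicate 2 or control replicate 2, and 3 without a filter. Igfbp3 went the other way from this list, while Igfbp2 (-1.51) and Igfbp7 (-0.42) fell as the list did. The part of oxygen in any of these changes was not tested.

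The genes most like Igfbp3 over the 6 libraries, among 11936 others with a mean count of at least 50, were Fdxr (Pearson r = 0.997), Dtx4 (0.997), Zfp672 (0.996), Spon2 (0.996) and Gas6 (0.995). These correlations describe 6 libraries in 2 groups and carry no test. Gas6, a ligand of the TAM receptor kinases, had 818.1, 804.5 and 1072 in SENP7 siRNA and 313.5, 278.1 and 460.1 in control libraries, and Spon2, a secreted matrix protein gene, had 953.8, 929.7 and 1230 in SENP7 siRNA and 472.7, 408.3 and 584.6 in control libraries. Because both were picked for their likeness to Igfbp3, they share its pattern, with the SENP7 siRNA libraries higher and replicate 3 the highest of each group.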

How the data were processed

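Polyadenylated RNA of 6 libraries was analysed. The submitters' processing notes name Trim Galore 0.6.4, STAR 2.6.1d, featureCounts 1.6.4, DESeq2 and build GRCm38.p6; how strand was handled in counting is not given in the sources used here. Library columns of the deposited table hold a normalized signal that divides the authors' reads by 1 factor per library: dividing by each library's step gave whole reads (within 0.1) for 100% of values above 0. Per the file headers, the authors also deposited a log2 fold change, a Wald score, a p-value and the exon length. Their log2 fold changes were smaller in size than those given here for Igfbp2 (-0.95), Igfbp3 (1.06), Igf1 (1.07) and Igf2 (1.01). By their adjusted p, 4 of the 10 genes were below 0.05.

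The test was limma 3.58.1 in R 4.3.3 (trend, robust), with the group alone as predictor, two-sided, at an adjusted threshold of 0.05. edgeR 4.0.16, which called 3052 genes, and DESeq2 1.42.0 were run on recovered reads as alternatives, as were other scalings, filters, pseudocounts and left-out libraries. The limma code was also run on simulated counts, with an outcome that is not given here and is not used as support. Chi-square per gene was 1.71 between SENP7 replicates 1 and 2 and between 7.44 and 37.3 in the other pairs, with 12.3 and 13.3 for the SENP7 pairs that hold replicate 3, so no pair was within sampling noise. P-values set the difference between the groups against the spread between these cultures.

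The genes and lists were chosen with earlier results of these data known. Named were the 10 genes, ligands, Igf2r, Senp7, up to 4 called genes per list with a mean of at least 50 and the smallest adjusted p, and the 5 genes most like Igfbp3. Promoter windows are from RefSeq. The setting without replicate 3 in both groups was chosen after seeing the data.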

Additional observations from a re-analysis of the deposited data

How the results depend on the processing

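Of the recomputed counts 140 stayed within 1.5 times the reported one and 50 did not, and of the single-gene values 559 kept their direction and side of the threshold, 27 lost a call, 13 gained one and 7 changed sign. Calls over all genes (3062) were 1398 at a threshold of 0.01, 1619 to 4702 with 1 library left out (1660 without SENP7 replicate 1, 1619 without SENP7 replicate 2, 1633 without control replicate 2 and 4702 without control replicate 3) and 4949 without replicate 3 in both groups. Of the 10 genes, 2 rose with DESeq2 and 2 under quantile normalization, 1 fell at 0.01, and with 1 library left out 1 to 3 rose and 1 to 3 fell (3 and 3 without replicate 3 in both groups). Called carriers and proteases were 2 with no filter, 0 with a mean of at least 50, 0 at 0.01, 0 to 2 with 1 library left out and 2 without replicate 3 in both groups. In the PI3K branch they were 3 at 0.01, 4 to 14 with 1 library left out and 16 without replicate 3 in both groups, and in the RAS branch 2 to 7 and 7. FoxO genes called were 4 with DESeq2, 4 with no filter, 0 at 0.01, 0 to 6 with 1 library left out and 6 without replicate 3 in both groups. Oxygen-responsive genes called were 3 with no filter, 5 at 0.01, 5 to 11 with 1 library left out and 11 without replicate 3 in both groups. Signs turned for Igf1r (-0.07 to 0.15), Igfbp4 (-0.52 to 0.23) and Igfbp5 (-0.04 to 0.14), log2 ranges with 1 library left out. The cause was not tested. Called ligand genes were 2 without a filter and 3 in the other settings, and called receptor adaptors were 4 to 8.

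With the replicate number as a block (replicate block), 4175 genes were called, 3 of the 10 genes rose (Irs1 at an adjusted p of 0.00103 and Irs2 at 0.000755 beside Igfbp3) and 3 fell, with Igfbp6 at 0.0142, by limma. Called carriers and proteases were 2, RAS branch genes 5, FoxO genes 7 and oxygen-responsive genes 5 (Car9 at 0.11). The numbers do not pair the samples by the labels. Deviations from the group means correlated at 0.13, 0.0624 and 0.251 between libraries of the same number over 14668 genes, and SENP7 replicate 2 correlated more with control replicate 1 (0.141).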
